A study of Homo sapiens with 6 samples.

Results

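The genes described here encode the machinery of regulated cell death, and the data are the binding clusters of IGF2BP3 on their mRNAs. They are 38 genes, chosen by name: the BCL2 proteins, the caspases, the inhibitor of apoptosis proteins, and the receptors and adaptors that connect them. Clusters belonged to a gene if they shared 1 nt or more with a GENCODE release 44 exon of it, strand included. Of the 38 genes, 31 had at least 1 cluster in the 5 IGF2BP3 libraries, with 928 of the 244620 clusters of these libraries. Over all protein-coding genes, 46.7% (9353 of 20046) had a cluster by the same rule. The 7 genes with none were BCL2, BAD, BIK, CASP6, CASP9, CASP10 and AIFM1.

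The cells were HCT116, an established colorectal carcinoma line, and in all 6 libraries they carried Tet-OsTIR1, an inducible plant F-box protein. Each culture had received 100 µM 4-thiouridine for 15 h before UV crosslinking at 365 nm. At a crosslinked 4-thiouridine the reverse transcriptase writes C where the RNA had U, and these T-to-C conversion events mark the bound fragments. Lysates and beads were digested with RNase I (0.05/0.05, 0.1/0.025 or 0.05/0.025 U/µL in lysate/on beads) or RNase T1 (1/1 or 0.25/0.25 U/µL) around the precipitation of IGF2BP3, and 1 control library was precipitated with IgG, also at 0.1/0.025 of RNase I. RNase T1 cuts after G, whereas RNase I cuts after any base. Electroelution recovered the RNA of 2 libraries, RNase I 0.05/0.05 and RNase T1 1/1, and gel crushing that of the remaining 3 with IGF2BP3, whereas for IgG the extraction is not given in the sources used here. There was 1 library per condition and thus no test between conditions. Intervals are 95% intervals of the read counts, or of the counts of windows for sequence tetramers, and cover counting error only.

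Apoptosis runs along 2 routes. On the mitochondrial route the survival proteins BCL2, BCL2L1 and MCL1 hold back the pore formers BAX and BAK1, BH3-only proteins such as BID and PMAIP1 relieve that restraint, and cytochrome c released through the pores assembles with APAF1 to activate caspases. On the receptor route the TRAIL receptors TNFRSF10A and TNFRSF10B recruit FADD and CASP8. IGF2BP3 is an oncofetal RNA-binding protein that sits mostly on 3′UTRs of mRNAs and is known to affect their stability and translation. In the study's own characterization the antibody also recognized part of the related IGF2BP2, so that some reads may come from that paralog.

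The clusters of the 5 IGF2BP3 libraries held between 182448 reads (RNase T1 0.25/0.25) and 2362467 reads (RNase I 0.05/0.05), and the 25 IgG clusters held 324. No IgG cluster lay on an exon of the 38 genes, and at 324 reads this says little about weak background. Levels are given as CPM, the reads in exon clusters scaled to the sum of cluster reads of that library, where 10 CPM stands for 23.6 reads in the deepest and 1.82 reads in the shallowest IGF2BP3 library. The 38 genes took between 0.392% and 0.435% of the cluster reads of each library. RNA abundance was not measured, so that more binding and more mRNA cannot be told apart. Reads outside clusters were not used here, and a gene without a cluster is not a gene at 0. Of the colorectal epithelial markers, EPCAM was a target in all 5 libraries, and KRT8, KRT18, KRT19 and CDH1 had clusters. VIL1 had none, and CDX2 had 5 reads in 1 library. PTPRC, HBB, COL1A1, VIM, DCN and ALB, markers of other cell types, had none.

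The bound RNA is shown for 10 of the 12 genes that were targets in every IGF2BP3 library, as defined in the next paragraph, and for BAX and BIRC5, whose levels differed between libraries. Each line gives up to 30 nt around the mode of the gene's cluster with the most reads, 5′ to 3′ in GRCh38 coordinates, with T for U. The cluster is that of RNase T1 1/1, except for BAX (RNase I 0.05/0.05) and BIRC5 (RNase T1 0.25/0.25). The clusters shown for BCL2L1, MCL1, CASP2, CYCS, DIABLO, BIRC6 and DFFA had too few conversion events per read to meet the target criteria. These genes were targets there through smaller clusters. Capitals mark CATT or CAGT, tetramers that hold the CA core known for this protein family.
BCL2L1 (chr20:31665691-31665720, minus strand): ccacaaaatctgtccaaaggaggctggcag
MCL1 (chr1:150575973-150576002, minus strand): ctagtatgtcaataaagcaaatacttactg
BID (chr22:17735401-17735430, minus strand): gttaaacttataacccactttaaaatatct
PMAIP1 (chr18:59903796-59903825, plus strand): gaatatatatgtatacacatacttacatac
CASP2 (chr7:143305474-143305503, plus strand): tcctatcttttatttCATTcatatcctccg
CYCS (chr7:25123086-25123115, minus strand): gattattcaacacctctcacatcttacaga
DIABLO (chr12:122208110-122208139, minus strand): ctgctcttaccCATTttttttacctcacac
XIAP (chrX:123912095-123912124, plus strand): atattaaatgacactttataactaatataa
BIRC6 (chr2:32618272-32618301, plus strand): atattggtCATTcttacaactactatttaa
DFFA (chr1:10456758-10456787, minus strand): ttagccatattcCATTatttcagcttaagt
BAX (chr19:48961212-48961241, plus strand): ctcaagttCATTgatgaccctctgacccta
BIRC5 (chr17:78224003-78224032, plus strand): ttccttatctgtcacacctgtgcctcctca
CATT stands in 4 of the 10 windows of the common targets and in that of BAX, and CAGT in none of the 12. Those 4 are among the clusters that missed the criteria. All windows except that of BAX come from RNase T1. Over protein-coding genes CAGT stood in 8.22% (1/1) and 12.3% (0.25/0.25) of RNase T1 windows, and in 15.8% to 16.9% with RNase I. Over all windows of the set the enzymes were closer. CAGT stood in 13.5%, 16.0% and 11.25% with RNase I 0.05/0.05, 0.1/0.025 and 0.05/0.025, and in 12.3% and 11.3% with RNase T1. In the main cluster of each gene of the set it stood in 16.7%, 20.8% and 24% with RNase I. Over the main clusters of protein-coding genes these shares were 15.3%, 16.8% and 16.6%. With RNase T1 the main clusters of the set gave 11.1% (3 of 27) and 14.3% (2 of 14), against 7.30% and 11.6%. The canonical transcript has each window except that of BAX in its 3′UTR. That of DFFA starts 4703 nt after the stop codon and that of XIAP 4914 nt after it, whereas that of BID starts 150 nt and that of BCL2L1 229 nt after it.

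The criteria for a target were 1 exon cluster or more above 10 CPM with over 0.5 conversion events for each read. Of the 31 genes with a cluster, 17 were targets after RNase I 0.05/0.05 (46.9% of the 9353 protein-coding genes with a cluster were), 19 after 0.1/0.025 (45.6%) and 21 after 0.05/0.025 (47.1%). RNase T1 gave 19 targets at 1/1 (42.1%) and 13 at 0.25/0.25 (29.3%). Targets in all 5 libraries numbered 12 of 31, or 38.7%, against 21.2% of the protein-coding genes. The excess was absent above 0.75 conversion events for each read, where 0 of 31 genes and 2.48% of protein-coding genes were targets in all 5 libraries. With 20 reads or more in a cluster, 4 of 31 genes and 4.79% of protein-coding genes were. Above 20 CPM, 8 of 31 and 13.8% were, so that under these 2 criteria the share of the set stayed larger, on few genes. By the criteria used here, the 12 were BCL2L1, MCL1, BID, PMAIP1, CASP2, CYCS, DIABLO, XIAP, BIRC6, TNFRSF10A, TNFRSF10B and DFFA. They cover each role except the pore formers and the divergent relatives BCL2L12 and BCL2L13. A further 13 genes were targets in 1 to 4 libraries, which makes 25 of 31 (80.6%) targets in at least 1, against 63.3% of the protein-coding genes. The 6 genes with clusters that were targets in none were BAK1, BBC3, BCL2L12, CASP4, CASP8 and TRADD, with at most 49 reads in the 5 libraries together. Without a measured RNA level, whether the larger share reflects abundance or binding was not tested.

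**Figure D1:**
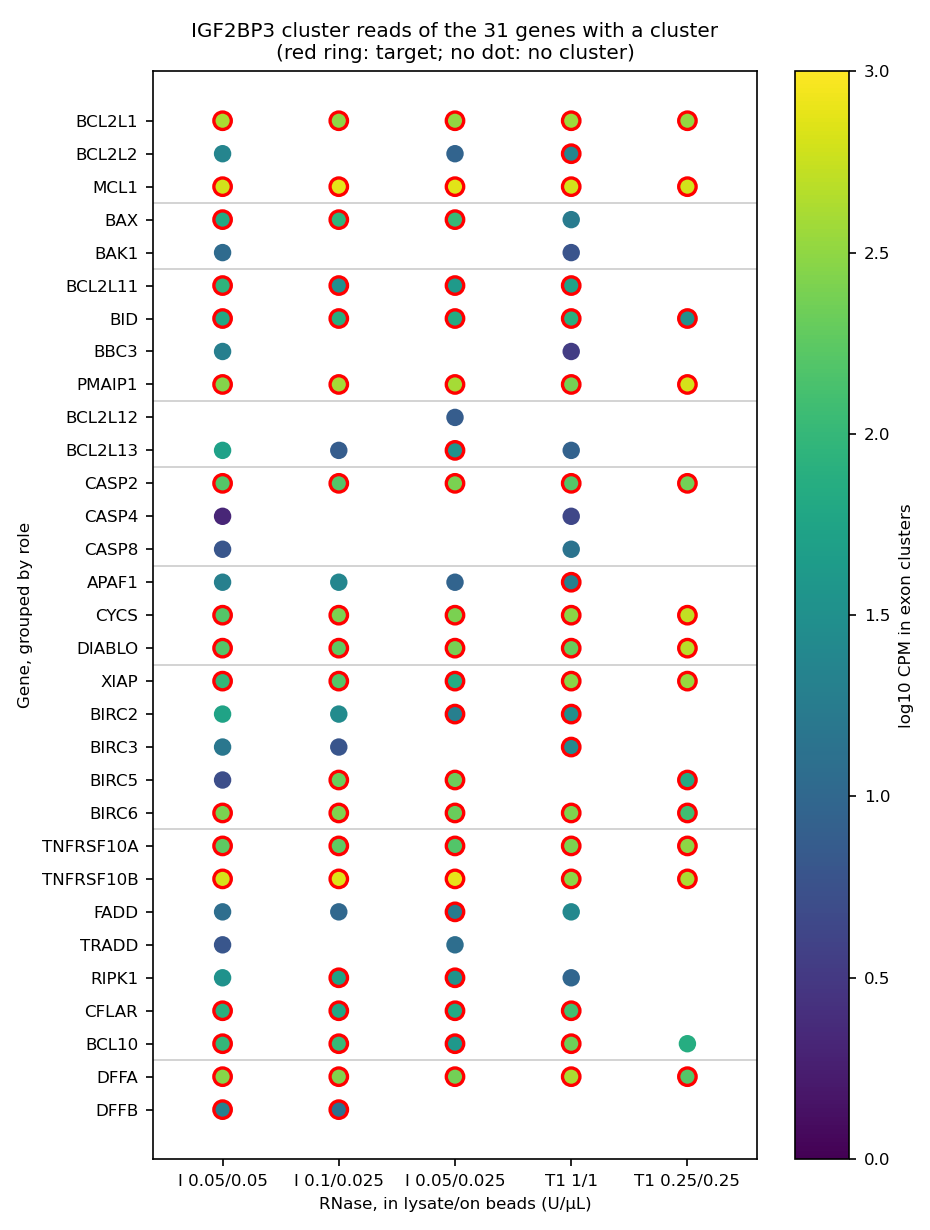
Each row is 1 of the 31 genes with a cluster, ordered by role, and each column 1 IGF2BP3 library named by RNase and concentration in lysate/on beads (U/µL). The colour gives log10 CPM in exon clusters and a red ring a target. The 12 genes ringed in every column include neither pore former (BAX and BAK1), and the RNase T1 0.25/0.25 column has the fewest dots (14).

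Among the survival proteins the mRNA of MCL1, a short-lived guardian of mitochondria, carried the most reads of the 38 genes over the 5 libraries together (3407). MCL1 had 1459 (618 CPM), 608 (757 CPM) and 498 (742 CPM) reads in the RNase I libraries 0.05/0.05, 0.1/0.025 and 0.05/0.025, and 728 (629 CPM) and 114 (625 CPM) in the RNase T1 libraries 1/1 and 0.25/0.25, an order of libraries kept below. The level was alike under both enzymes: RNase I 0.05/0.05 over RNase T1 1/1 gave a ratio of 0.982 (0.898 to 1.07). The most bound stretch was also shared, since the cluster with the most reads ran from 1333 to 1402 nt after the stop codon with RNase T1 1/1 and from 1334 to 1433 nt with RNase T1 0.25/0.25, both inside the 1153-nt cluster of RNase I 0.05/0.05. BCL2L1, which encodes BCL-XL, had 988, 247, 220, 418 and 60 reads in the same order of libraries, or 418, 307, 328, 361 and 329 CPM. Its main cluster lay within the first 263 nt of the 3′UTR in every library and reached back over the stop codon with RNase I 0.05/0.05. BCL2L2 was far lower, at 55 and 6 reads (23.3 and 8.95 CPM) in the RNase I libraries 0.05/0.05 and 0.05/0.025 and 27 (23.3 CPM) in RNase T1 1/1, where alone it was a target. BCL2 itself, the founding member of the family, had no cluster although its annotated 3′UTR is 5279 nt long.

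Per length of the canonical mRNA the genes stand in another order. Over the 13 genes with clusters in all 5 libraries the median level was highest for PMAIP1 with 209 CPM per kb (range over libraries 125 to 338). TNFRSF10B followed with 162 (75.4 to 195), MCL1 with 159 (156 to 192), DIABLO with 136 (108 to 320) and BCL2L1 with 128 (119 to 162). The ranges of these neighbours overlap, so that their order is not settled by these libraries. XIAP with 18.6 CPM per kb (8.19 to 40.3) and BIRC6 with 16.0 (7.69 to 16.8) were lowest, below the whole range of MCL1.

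The BH3-only genes were uneven. PMAIP1 encodes NOXA, which binds and removes MCL1. It had 654 (277 CPM), 320 (398 CPM) and 266 (397 CPM) reads in the RNase I libraries and 274 (237 CPM) and 117 (641 CPM) in those of RNase T1. The lower value of each enzyme was in its electroeluted library. BID, which carries the receptor signal to mitochondria, had 147, 61, 44, 91 and 6 reads, or 62.2, 75.9, 65.6, 78.6 and 32.9 CPM, and the last value rests on 1 cluster. BCL2L11, which encodes BIM, was a target in 4 libraries with 31.1 to 87.2 CPM and had no cluster with RNase T1 0.25/0.25. BBC3, which encodes PUMA, had 45 reads in RNase I 0.05/0.05, 4 in RNase T1 1/1, and was no target. BAD and BIK had no exon cluster.

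BAX was the 1 gene of the 31 that was a target in all 3 RNase I libraries and in neither RNase T1 library. The share of protein-coding genes with this pattern was not counted. In the electroeluted pair alone, 12.9% of protein-coding genes with a cluster were targets with RNase I only, against 2 of 31 in the set. It had 151 (63.9 CPM), 71 (88.4 CPM) and 71 (106 CPM) reads in the RNase I libraries and 20 (17.3 CPM) with RNase T1 1/1, and no cluster with RNase T1 0.25/0.25. All 3 RNase I values lie above that of RNase T1 1/1, and RNase I 0.05/0.05 over RNase T1 1/1 gave 3.70 (2.31 to 6.23). The place of the reads is unusual for this gene set. Of 313 BAX reads, 180 (57.5%) lay on exons of other annotated transcripts and not on the canonical one, in a stretch of 478 nt at chr19:48960998-48961475. By library this share was 55.0% (83 of 151), 73.2% (52 of 71) and 57.7% (41 of 71) with RNase I and 20.0% (4 of 20) with RNase T1 1/1. Other transcripts annotate this stretch as coding sequence and as 3′UTR. On canonical exons alone BAX was a target with RNase I 0.05/0.05 and 0.05/0.025 but not with 0.1/0.025. CFLAR came next among the genes with over 50 reads, with 35.0% of its reads outside canonical exons, and 24 genes had none there. The second pore former, BAK1, had 26 reads with RNase I 0.05/0.05 and 7 with RNase T1 1/1.

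**Figure D2:**
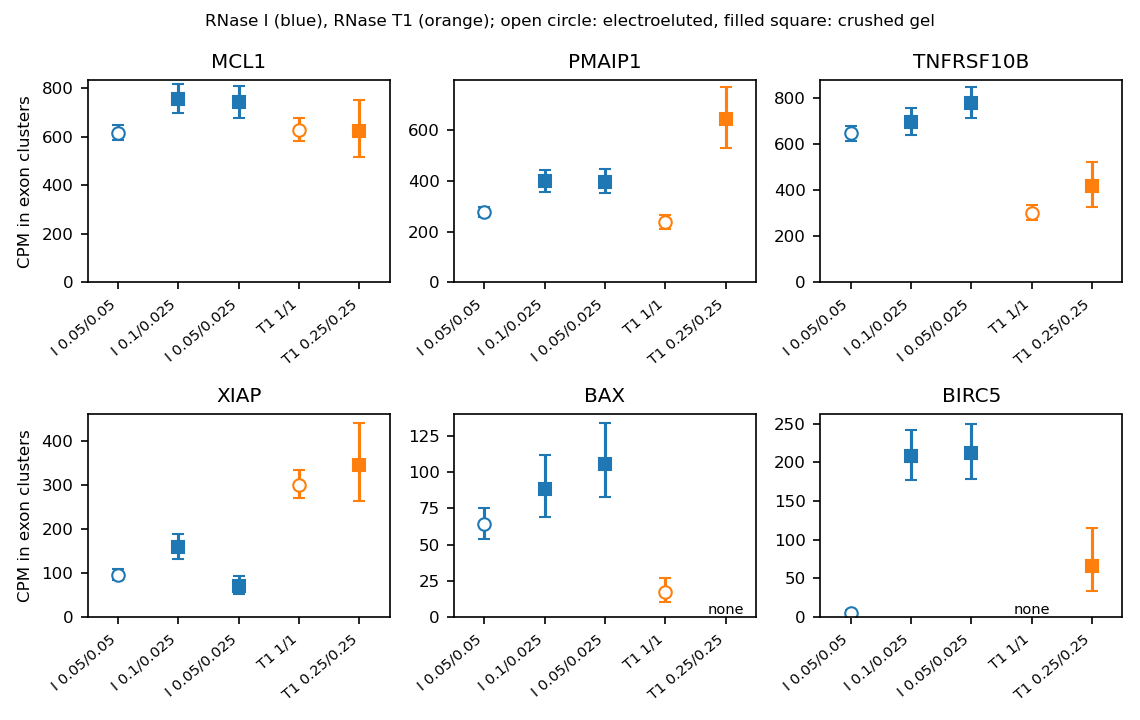
CPM in exon clusters of 6 genes (one panel each) in the 5 IGF2BP3 libraries, named by RNase and concentration in lysate/on beads (U/µL). Bars are exact Poisson 95% intervals of 1 library each, colour gives the enzyme, the symbol the gel extraction, and "none" the absence of a cluster. MCL1 stays between 618 and 757 CPM, XIAP is higher with RNase T1, BAX and TNFRSF10B are higher with RNase I, and BIRC5 is high in crushed-gel libraries.

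Among the 6 caspases of the set, proteases that dismantle the cell, CASP2 alone was a target. CASP2 is an initiator caspase activated on the PIDDosome. It had 369, 125, 168, 182 and 42 reads, or 156, 156, 250, 157 and 230 CPM, in the order of libraries above. Its clusters all lay in the 3′UTR, and 4 of its 15 sites were present in all 5 libraries. CASP8, the initiator of the receptor route, had 15 reads with RNase I 0.05/0.05 and 16 with RNase T1 1/1. CASP4, an inflammatory caspase, had 5 in each of the same libraries, and CASP6, CASP9 and CASP10 had no cluster.

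Of the factors that leave the mitochondrion, CYCS and DIABLO were targets throughout and AIFM1 had no cluster. CYCS, cytochrome c, had 371 reads (157 CPM), 203 (253 CPM), 169 (252 CPM), 350 (302 CPM) and 97 (532 CPM). Both RNase T1 values exceed all RNase I values, with RNase I over RNase T1 ratios of 0.519 (0.447 to 0.603) in the electroeluted pair and 0.474 (0.367 to 0.615) for RNase I 0.05/0.025 over RNase T1 0.25/0.25. The 3 CYCS sites found in all libraries lay between 174 and 652 nt after the stop codon, at the start of an annotated 3′UTR of 5045 nt. The 42 annotated CYCS pseudogenes had 1 cluster with 30 reads between them. DIABLO, which encodes SMAC and disables inhibitors of apoptosis, had 159, 179, 242, 200 and 471 CPM. All 24 of its clusters also lie on exons of read-through genes and cannot be assigned to DIABLO alone. APAF1, the scaffold of the apoptosome, had 47, 19 and 6 reads with RNase I (19.9, 23.6 and 8.95 CPM) and 22 with RNase T1 1/1 (19.0 CPM), the 1 library where it was a target.

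The 5 inhibitors of apoptosis of the set all had clusters but in different parts of the mRNA. XIAP blocks caspases directly, and 100% of its cluster reads were in the 3′UTR. It had 227 reads (96.1 CPM), 128 (159 CPM) and 47 (70.1 CPM) with RNase I in the order above, 349 (302 CPM) with RNase T1 1/1 and 63 (345 CPM) with RNase T1 0.25/0.25. Both RNase T1 values lie above all 3 RNase I values. RNase I over RNase T1 ratios were 0.319 (0.268 to 0.378) in the electroeluted pair and 0.203 (0.136 to 0.301) for RNase I 0.05/0.025 over RNase T1 0.25/0.25. No other gene of the set with a ratio in both pairs was past 2-fold in both, but the second pair gave a ratio for 14 genes only. How many protein-coding genes were past 2-fold in both pairs was not counted. BAX, BCL2L13 and RIPK1, over 2-fold higher with RNase I in the first pair, had 71, 23 and 23 reads with RNase I in the second and no cluster with RNase T1. A site found in all 5 libraries ran from 4816 to 5023 nt after the stop codon, with 58, 60, 31, 188 and 40 reads, or 24.6, 74.7 and 46.2 CPM in the RNase I libraries and 162 and 219 CPM with RNase T1. G made up 10.2% to 14.9% of the bases of XIAP clusters with RNase I, and 11.2% (1/1) and 12.6% (0.25/0.25) with RNase T1. In clusters of all protein-coding genes it made up 18.1% to 19.2% and 13.4% and 14.3%. CASP2 clusters held 8.71% and 9.33% G with RNase T1, and its ratios in the 2 pairs were 0.993 and 1.09. Whether G content bears on these ratios was not tested. BIRC6, a very large ubiquitin ligase, had 594, 212, 137, 302 and 22 reads, or 251, 264, 204, 261 and 121 CPM. Of its reads 86.8% were in coding sequence, in 109 of 120 clusters. The canonical 3′UTR is 974 of 15687 nt in BIRC6 and 6791 of 8558 nt in XIAP, and these shares of reads take no account of length. BIRC3 (84.9%) and BIRC2 (56.0%), ubiquitin ligases of TNF signalling, also had most reads in coding sequence, but on 73 and 200 reads. Their canonical 3′UTRs are 2301 of 6877 nt and 487 of 3764 nt, and the 3′UTR of BIRC2 held 39% of its reads. BIRC2 had 131, 22, 13 and 34 reads, or 55.5, 27.4, 19.4 and 29.4 CPM, in all libraries except RNase T1 0.25/0.25. BIRC3 had 37 and 5 reads with RNase I 0.05/0.05 and 0.1/0.025 (15.7 and 6.22 CPM) and 31 with RNase T1 1/1 (26.8 CPM). Both were targets with RNase T1 1/1 and not with RNase I 0.05/0.05.

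BIRC5, which encodes survivin and also serves chromosome segregation, stood apart by library. It had 12 reads (5.08 CPM, 2.62 to 8.87) with RNase I 0.05/0.05 and no cluster with RNase T1 1/1. In the crushed-gel libraries it had 167 reads (208 CPM, 178 to 242) at RNase I 0.1/0.025, 142 (212 CPM, 178 to 250) at 0.05/0.025 and 12 (65.8 CPM, 34.0 to 115) at RNase T1 0.25/0.25. All 3 crushed-gel libraries thus lie above both electroeluted ones, by 12.9-fold from the lowest of the former to the higher of the latter. Of 6259 protein-coding genes with at least 50 reads and an electroeluted value, 0.943% were over 2-fold higher in all crushed-gel libraries, and BIRC5 ranked 2. In the opposite direction 7.81% of 6007 genes were over 2-fold higher in both electroeluted libraries. Of the 25 genes of the set with 50 reads, 1 (BIRC5) was called in the first direction and 2 (BCL2L2 and BIRC3) in the second. This comparison was made after the values of BIRC5 had been seen. Around it in the ranking were TOP2A (14.8-fold, rank 1), a topoisomerase of mitotic chromosomes, HMMR (7.08-fold), KIF23 (6.52-fold), a kinesin of cytokinesis, and STIL (6.47-fold), a centriole protein. Gel extraction, RNase concentration and the culture behind each library cannot be told apart for these values.

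**Figure D3:**
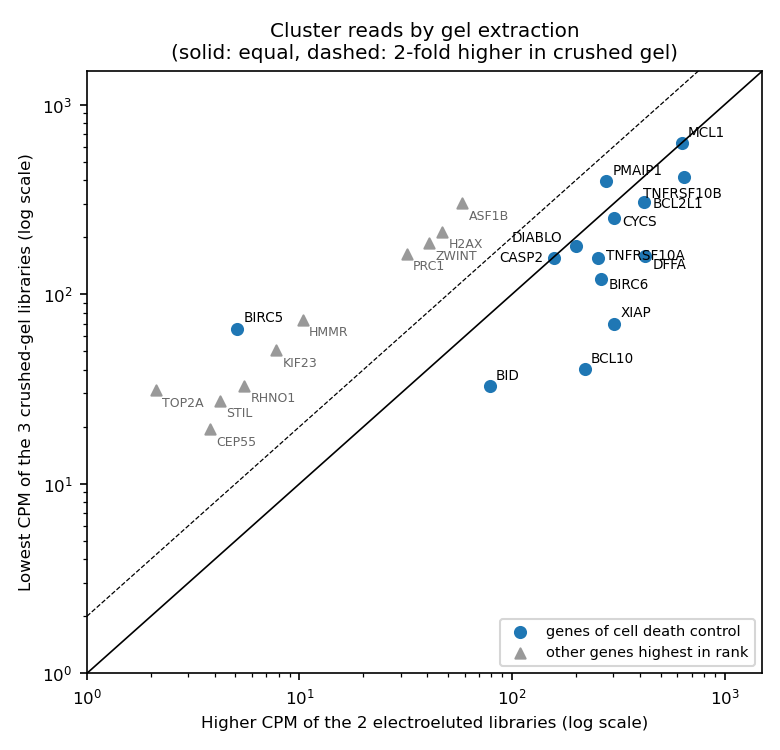
Each point is 1 gene, with the higher CPM of the 2 electroeluted libraries on the x axis and the lowest CPM of the 3 crushed-gel libraries on the y axis, both on log scales. Blue circles are the genes of cell death control with 50 reads and a cluster in every crushed-gel library, and grey triangles the other genes of highest rank. BIRC5 lies at 5.08 and 65.8 CPM, above the dashed line of a 2-fold difference, and PMAIP1 at 277 and 397 CPM.

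Both TRAIL receptors were targets throughout. TNFRSF10B, the receptor DR5, had 1526 reads (646 CPM), 560 (697 CPM) and 522 (778 CPM) with RNase I and 349 (302 CPM) and 76 (417 CPM) with RNase T1, so that all RNase I values lie above both RNase T1 values. The ratio was 2.14 (1.91 to 2.41) in the electroeluted pair and 1.87 (1.47 to 2.41) for RNase I 0.05/0.025 over RNase T1 0.25/0.25. TNFRSF10A, the receptor DR4, had 429, 143, 104, 294 and 56 reads, or 182, 178, 155, 254 and 307 CPM. The 2 receptors went opposite ways between enzymes, with a TNFRSF10A ratio of 0.715 (0.615 to 0.832) in the electroeluted pair.

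The adaptors had fewer cluster reads than either TRAIL receptor in each library. BCL10, which carries antigen receptor signals to NF-κB, had 229 reads (96.9 CPM), 85 (106 CPM), 27 (40.3 CPM), 254 (219 CPM) and 13 (71.3 CPM), and missed the target criteria with RNase T1 0.25/0.25. It was 2.63-fold higher (1.69 to 4.22) with RNase I 0.1/0.025 than with RNase I 0.05/0.025. CFLAR, a catalytically dead relative of CASP8, had 187, 49, 45 and 145 reads and no cluster with RNase T1 0.25/0.25. RIPK1 had 81, 44, 23 and 11 reads, FADD 28, 8, 12 and 29, and TRADD 15 and 8 in 2 RNase I libraries. Of the DNA fragmentation pair, DFFA, the inhibitor of the nuclease, had 675, 218, 156, 487 and 29 reads, or 286, 271, 233, 421 and 159 CPM. DFFB, the nuclease, had 47 reads (19.9 CPM) with RNase I 0.05/0.05 and 11 (13.7 CPM) with RNase I 0.1/0.025.

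Counted over the gene set, differences past 2-fold went both ways. Among 26 genes with clusters in both electroeluted libraries and 20 reads in sum, 5 were over 2-fold higher with RNase I 0.05/0.05 than with RNase T1 1/1 (BAX, BBC3, BCL2L13, RIPK1 and TNFRSF10B), against 19.1% of 6747 genes. Lower were 4 (BCL10, CASP8, FADD and XIAP), against 16.5%. With RNase I 0.05/0.025 over RNase T1 0.25/0.25, 1 of 14 genes was higher (BIRC5, background 18%) and 2 lower (CYCS and XIAP, background 9.76%). RNase I 0.1/0.025 and 0.05/0.025 shared on-beads concentration and gel extraction, but lysate concentration and the culture behind each library cannot be told apart. Between these libraries 3 of 22 genes were higher with 0.1 U/µL in lysate (APAF1, BCL10 and XIAP, background 8.93%) and 1 lower (BCL2L13, background 5.31%). The median ratios of 0.987, 1.04 and 1.00 were close to those over all genes tested, which were 0.993, 1.06 and 1.04. By calls, BAX and DFFB were targets with RNase I 0.05/0.05 and not with RNase T1 1/1 (background 12.9%), and APAF1, BCL2L2, BIRC2 and BIRC3 the reverse (background 8.13%). These counts are near the background or rest on few genes.

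The conversion criterion acted also on clusters with many reads. In the 12 genes that were targets in all libraries, the cluster with the most reads met both criteria in 12 genes (97.7% over all such protein-coding genes), 11 (92.8%) and 9 (86.3%) of the RNase I libraries, and in 5 (46.7%) and 7 (65%) of the RNase T1 libraries. With RNase T1 1/1 the main clusters of BCL2L1, MCL1, CASP2, CYCS, DIABLO, BIRC6 and DFFA fell short. That of MCL1 had 0.304 events per read, that of DFFA 0.280 and that of DIABLO 0.186, and these genes were called through smaller clusters. Over all their clusters the 38 genes had 0.640, 0.651, 0.592, 0.500 and 0.535 events per read, close to 0.638, 0.651, 0.608, 0.512 and 0.552 over protein-coding genes.

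By annotation the reads were mostly in 3′UTRs, where IGF2BP3 is known to bind. Clusters that overlapped a 3′UTR held 90.7%, 92.2%, 93.5%, 91.6% and 96.7% of the reads of the gene set, and 79.5%, 81.6%, 80.0%, 86.7% and 86.5% of those of protein-coding genes. After BIRC6, BIRC3 and BIRC2, the largest shares in coding sequence were those of CASP4 (50% of 10 reads) and CASP8 (32.3% of 31 reads). BAX (26.5%), APAF1 (22.3%), DIABLO (15.4%), BCL2L13 (13.3%) and BBC3 (12.2%) followed. The median share of the canonical 3′UTR covered by clusters, over the genes with a cluster there, was 25.9%, 14.8%, 9.69%, 10.3% and 7.17% by library, next to 23.3%, 13.3%, 12%, 7.83% and 4.70% over the other genes. It was thus lower than elsewhere with RNase I 0.05/0.025 and higher in the other libraries. That exception depended on the canonical 3′UTR. Over all annotated 3′UTRs the median with RNase I 0.05/0.025 was 13.8% against 9.97%, and the set was higher in every library. Coverage of single genes was higher with RNase I 0.05/0.05, at 86.0% for MCL1, 83.1% for BCL2L1 and 80.3% for TNFRSF10B, whereas RNase T1 1/1 covered 35.3%, 38.9% and 30.3% of them. The median cluster of the set was 59 nt with RNase I 0.05/0.05 and 36 nt with RNase T1 1/1, and the part of depth and cluster length in these values was not tested.

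**Figure D4:**
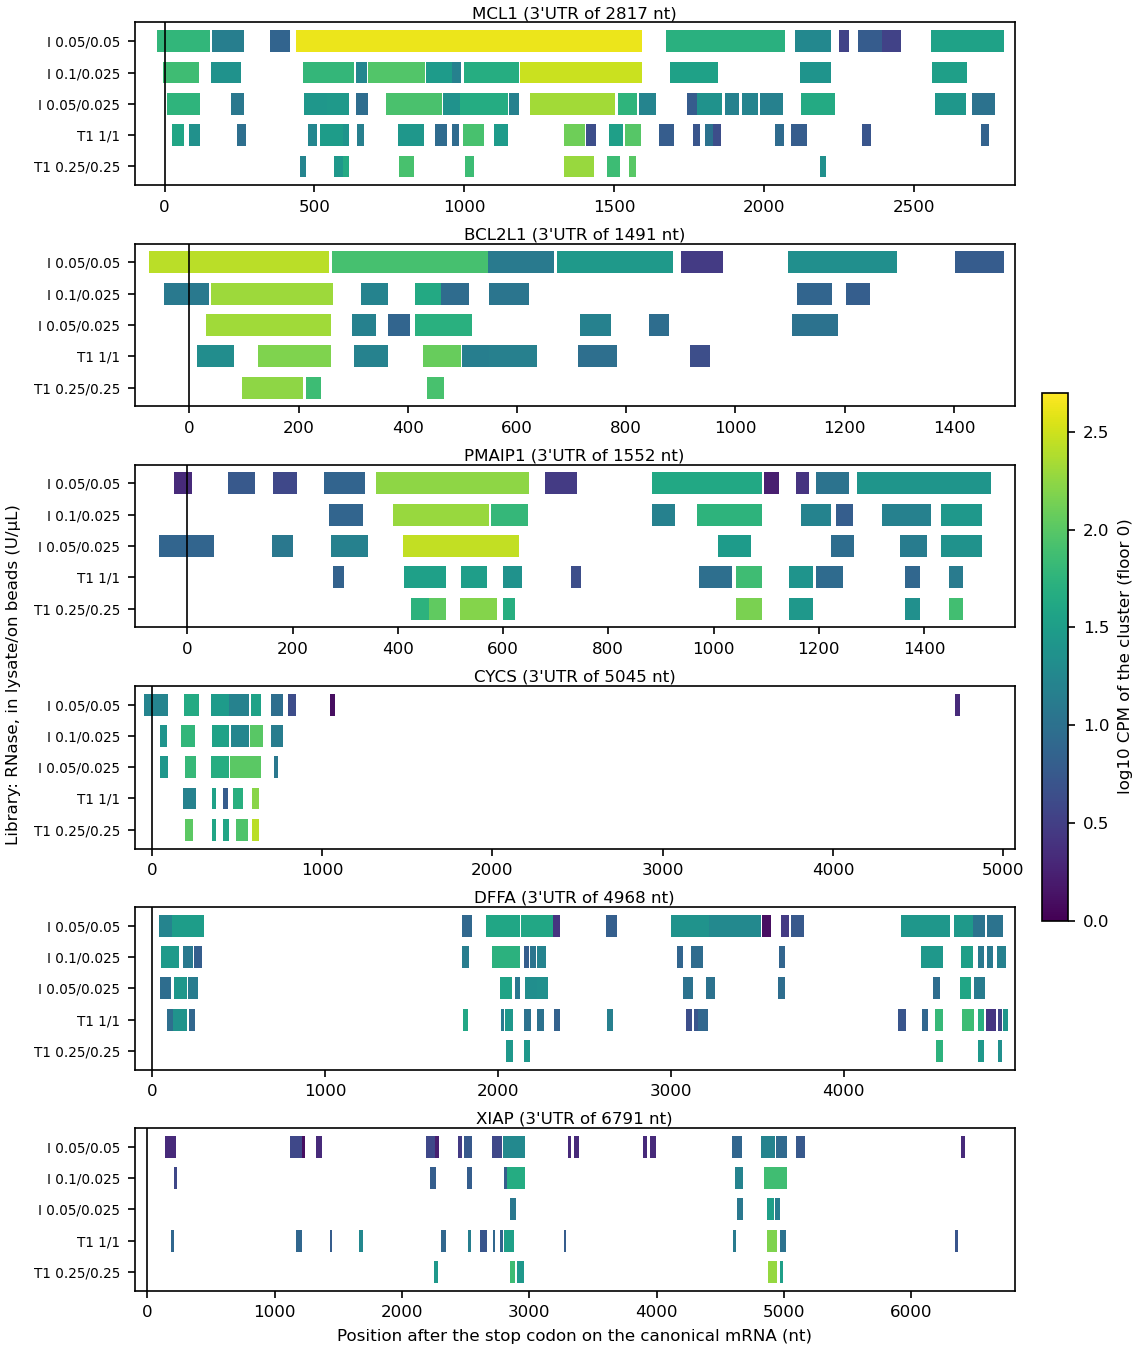
Clusters along the canonical 3′UTR of 6 genes, with the position after the stop codon (nt) on the x axis, 1 row per IGF2BP3 library and log10 CPM of the cluster as colour. The main MCL1 clusters all cover the stretch from 1334 to 1402 nt, CYCS clusters crowd at the start of a long 3′UTR, and XIAP has a site from 4816 to 5023 nt that is brighter with RNase T1.

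Overlapping clusters of the libraries merged into 331 sites on these genes, of which 30 (9.06%) held clusters of all 5 libraries, against 6.68% of 79860 sites on protein-coding genes. These 30 sites held 66.6% of the reads of the set (59.8% over protein-coding genes). They lay on 12 genes, with 4 sites each on CASP2, DFFA, PMAIP1 and TNFRSF10B, and 171 of the 331 sites came from a single library. PMAIP1 shows how a shared site can still differ in level: the site from 359 to 648 nt after its stop codon had 174, 255 and 286 CPM with RNase I, 89.0 CPM with RNase T1 1/1 and 373 CPM with RNase T1 0.25/0.25.

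The tetramers shown above were about as frequent as elsewhere. CATT, searched on the RNA strand alone, stood in 18.2% (58 of 318, Wilson interval 14.4% to 22.9%) of the 30-nt windows of the set with RNase I 0.05/0.05 and in 25.1% (55 of 219, 19.8% to 31.3%) with RNase T1 1/1. Over protein-coding clusters it stood in 17.5% and 27.4%. CAGT stood in 13.5% and 12.3% (8.61% to 17.3%), against 15.8% and 8.22%, and the last value lies just below that interval. In the other 3 libraries the background lies within the interval of the set for both tetramers. These intervals take the windows as independent, although many lie on the same mRNA. With RNase T1 1/1, BIRC6 gave 31 and MCL1 24 of the 219 windows. The intervals thus do not test the difference from the background.

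Of 37 other genes of cell death control, 20 had a cluster (46.7% of all protein-coding genes did). Of these 20, 15 were a target in some library and 8 in all 5, against 63.3% and 21.2% of the protein-coding genes with a cluster. The 8 were the death receptors FAS and TNFRSF1A, the TRAIL decoy receptor TNFRSF10D, the adaptor-binding protein PEA15, the channels VDAC1 and VDAC2 of the outer mitochondrial membrane, the cochaperone BAG3 and TMBIM6, also named BAX inhibitor 1. TMBIM6 had 3130 reads with RNase I 0.05/0.05, more than any of the 38 genes.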

How the data were processed

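Clusters of 5 IGF2BP3 libraries and 1 IgG library were analysed, 1 per condition, in groups taken from the labels. The authors demultiplexed with bcl2fastq 2.20.0.422, removed duplicates by molecular identifiers (UMI-tools 1.1.1), kept 18 to 45 nt with Trimmomatic 0.30, aligned to GRCh38 with Bowtie 0.12.7 and ran PARalyzer 1.5 on each library. The deposited read and conversion counts of each cluster are not normalized. The deposited mode score, a fraction, was not used here.

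Genes, roles and lists were chosen with earlier results of these data known. All 38 genes are named, and full values are given for targets in all libraries, genes called with 1 enzyme in the electroeluted pair, BAX, CASP2, BCL10 and those past 2-fold in both enzyme comparisons. Clusters were joined to GENCODE 44 with bedtools 2.31.1 and Python 3.11.15 (pandas 2.3.3, numpy 2.4.6, scipy 1.17.1, matplotlib 3.10.9). CPM is relative to cluster reads, which are not the library size, and 10 CPM is from 1.82 reads (RNase T1 0.25/0.25) to 23.6 reads (RNase I 0.05/0.05). Low-depth libraries thus call targets on few reads. Overlapping features were assigned 3′UTR first. Intervals were exact Poisson for levels, exact binomial for ratios and Wilson for shares, and shared no replicate error. All 244645 cluster sequences matched GRCh38. Simulated clusters set above or below the thresholds checked only that the code applied the target rule. Alternatives changed the target thresholds, the annotation order, the transcripts, the overlap, the windows and the minimum reads.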

Additional observations from a re-analysis of the deposited data

Results flagged for a closer look

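Clusters near these genes but outside their annotated exons were not part of any comparison. On introns they held 581 reads in the 5 IGF2BP3 libraries and none with IgG. Of these, 473 lay in 1 stretch of 1511 nt in an intron of BID at chr22:17763815-17765325, with 27 clusters in 4 libraries (254, 62 and 75 reads in the RNase I libraries and 82 in RNase T1 1/1), more than the 349 reads on the exons of BID. Within 5 kb downstream of the annotated ends they held 712 reads, also none with IgG. TNFRSF10A took 175, 74, 36, 216 and 13 of these by library, and BCL2L13 and FADD most of the rest. Clusters on the strand opposite to these genes were not found.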

How the results depend on the processing

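No paired analysis was possible because each condition has 1 library and no replicate numbers. Of the values recomputed under alternatives, 65 stayed within the limits set for them and 35 moved. Above 20 CPM, 12 genes were targets in the RNase I 0.05/0.025 and 12 in the RNase T1 1/1 library (29.4% and 23.7% of protein-coding genes). At 20 reads or more per cluster 11 and 12 were targets there (22.5% and 28.7%), 5 in the RNase T1 0.25/0.25 library (5.40%) and 4 in all (4.79%). Above 0.75 conversion events per read 5 (0.05/0.05) and 12 (0.05/0.025) were RNase I targets (14.4% and 24.6%), 7 (1/1) and 8 (0.25/0.25) RNase T1 targets (15.7% and 16.9%), and 0 were targets in all libraries (2.48%). When conversion events had to exceed 0.5 of all conversion and non-conversion events, 0 genes were targets in each library and in all, as that sum counts every T in a read. With coding sequence assigned first, 3′UTR clusters held 73.4%, 83.1% and 82.7% of the reads of the RNase I libraries. With at least 50 reads, 0 genes were over 2-fold lower with RNase I 0.1/0.025 than with 0.05/0.025, and with 50% reciprocal overlap 4 sites were in all libraries. In whole clusters, which are longer, CATT stood in 38.7%, 42.6% and 37.5% of the RNase I clusters and 32.0% of those of RNase T1 1/1, and CAGT in 33.6%, 36.1% and 27.5% of the former and 22.6% of those of RNase T1 0.25/0.25. In the main cluster of each gene CATT stood in 23.3% (RNase I 0.05/0.05) and 50.0% (RNase T1 0.25/0.25), and CAGT in 24% (RNase I 0.05/0.025). The BIRC5 ratio was 40.9 within RNase I libraries and also without RNase T1 0.25/0.25, both chosen after seeing the data. Other causes were not tested. The RNase T1 0.25/0.25 library, with 182448 cluster reads, limits what the counts over all 5 libraries can show.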
